A study of Mus musculus with 5 samples.

Results

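The transcription factors described here are 10 genes that set or maintain epithelial identity, namely Trp63, Grhl1, Grhl2, Klf5, Elf3, Ehf, Ovol1, Ovol2, Sox9 and Nkx2-1. They were taken by symbol from a table of 55276 gene rows, and all 10 were found. The series measured RNA of cells that its labels call polymorphonuclear myeloid-derived suppressor cells (PMN-MDSCs), a neutrophil-lineage population that restrains T cells in tumor-bearing hosts. The libraries compared were 2 from tumor (replicates 2 and 3), set against 3 from lung (replicates 1, 2 and 3). Every library is labelled wild type (WT), no treatment other than the tissue is given, and each was made from at least 2000000 sorted cells and is stated as 20000000 paired reads. The labels used here give no strain, age, tumor model or sort markers. They do not say that each library was a different animal, and every p-value below therefore reflects variation among 5 libraries that could be technical. Levels are in TPM, a length-corrected abundance whose library total is 1000000. Read counts per gene cannot be had from TPM, which leaves the counting error of each value unknown, and a value of 0 is given as listed at 0.

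Epithelia are built and kept by a small number of transcription factors that act on shared sets of adhesion, keratin and polarity genes. p63, from Trp63, maintains the basal cells of stratified epithelia. The grainyhead-like factors and the epithelial ETS factors drive junction and barrier genes, the OVOL repressors hold down the genes of epithelial-mesenchymal transition, SOX9 marks progenitors of many epithelia, and NKX2-1 specifies lung and thyroid. Neutrophil identity rests on other factors, such as PU.1 and the C/EBP proteins.

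The libraries labelled tumor and lung differed in the cell type markers they held. All 12 of 12 epithelial markers were called higher in tumor, and their summed level was 5813 and 5841 TPM in tumor against 114, 63.5 and 62.9 TPM in lung. None of them was listed at 0 in any library. Of 20 neutrophil markers 20 were lower, with sums of 1258 to 4238 TPM in tumor and 39176 to 65523 TPM in lung, and of 30 pan-leukocyte markers 30 were lower (943 to 2609 TPM in tumor, 18665 to 19751 TPM in lung). Ptprc (CD45, carried by all leukocytes) stood at 18.5 and 75.3 TPM in tumor, against 842, 926 and 959 TPM in lung. In 10 of 10 endothelial markers tumor was lower, and in 6 of 10 fibroblast markers it was higher, with fibroblast sums of 239 to 1276 TPM in tumor and 26.3 to 35.7 TPM in lung. Of 10 macrophage markers 4 were higher and 3 lower (sums of 1157 to 2720 TPM in tumor and 1113 to 1248 TPM in lung). The higher fibroblast calls numbered 3 without any one lung library, and the lower macrophage calls 1, 1 and 0 without lung replicates 1, 2 and 3. The other 5 marker lists likewise held no gene listed at 0 in any library. The part of these cell types in the differences below was not tested. In bulk RNA, fewer cells of a type and less RNA per cell cannot be told apart.

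Of the 10 factors, 9 had both tumor values above all 3 lung values, and Nkx2-1 had both below. Over all 34930 rows with a value, 24.5% lay wholly above and 30.1% wholly below. Only 5 factors (Grhl2, Klf5, Elf3, Ehf and Sox9) reached the mean of 1 TPM over the 5 libraries that the test required. All of them were called higher in tumor. Grhl2, Elf3, Ehf and Sox9 had lung means under 1 TPM (0.641, 0.878, 0.662 and 0.282 TPM). They reached the filter through the tumor libraries alone, so the filter fixed their direction. Only Klf5, with a lung mean of 4.75 TPM, could have gone either way. Of the 16387 genes tested, 31.6% were called higher, 27.0% lower and 58.6% in either direction, and 39.9% lay wholly above in tumor. A call needed a limma p of under 0.05 after Benjamini-Hochberg adjustment together with a change of 1.5-fold or more. A gene that reaches the filter through one group alone has to differ, so this count and those of the lists below are given as descriptions. The median difference of all genes tested was 0.018. Differences here are log2(TPM + 1), tumor minus lung, with ± SE, a scale that understates the change of low genes. Folds are ratios of mean TPM.

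**Figure D1:**
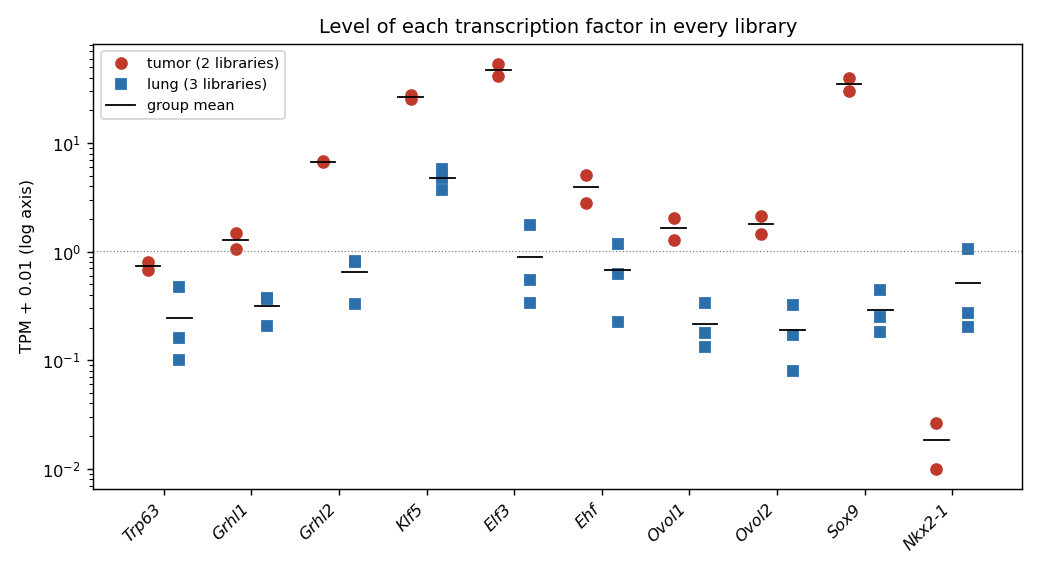
Level of each transcription factor in every library, as TPM + 0.01 on a log axis, with tumor libraries as circles and lung libraries as squares, the group mean as a bar and 1 TPM as a dotted line. Elf3, Sox9 and Klf5 stand highest in tumor, above 25 TPM, and Nkx2-1 is the factor whose tumor values lie under its lung values.

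Trp63 encodes p63, the basal cell factor. It was at 0.786 and 0.666 TPM in tumor and at 0.457, 0.151 and 0.0910 TPM in lung. Both tumor libraries stood above every lung library, but all 5 values were under 1 TPM. Fitted with no filter on low values, the difference was 0.50 ± 0.17 and did not pass (limma, adjusted p = 0.0974). It passed without lung replicate 1, the highest lung library (0.62, adjusted p = 0.0386).

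Most genes linked to p63 in basal epithelia were higher in tumor. Of 24 listed genes 22 were tested, of which 17 were higher in tumor and 0 lower (limma), with a median difference of 2.64. The 5 not called were Krt5, Krt15, Col17a1, Sfn and Trim29, and 1 gene was called lower without lung replicate 2. Krt14, a keratin of basal cells, was at 762 and 778 TPM in tumor and at 6.52, 0.473 and 0.922 TPM in lung. Its usual partner keratin gene Krt5 was at 3.71 and 5.63 TPM in tumor and at 5.21, 0.318 and 0.645 TPM in lung, so the groups overlapped (1.23 ± 0.74, limma adjusted p = 0.204). Of the hemidesmosome and basement membrane genes, Itgb4 (integrin beta 4) was at 182 and 199 TPM in tumor against 1.83, 0.409 and 2.14 TPM in lung. Lama3, a laminin chain gene, was at 90.2 and 85.4 TPM in tumor against 0.563, 0.136 and 0.119 TPM in lung. Itga6 differed by 4.61 ± 0.19, and Pkp1, which encodes a desmosomal plakophilin, by 5.12 ± 0.19 (limma adjusted p = 0.000901 for both). Of the p53 relatives, Trp53 was at 3.98 and 5.64 TPM in tumor and 14.8, 7.30 and 10.3 TPM in lung, and just missed the threshold (-0.99 ± 0.33, limma adjusted p = 0.0505). This list had 1 lower call with smaller pseudocounts, a filter of 5 TPM, upper-quartile scaling or without lung replicate 2, and 1 higher call under pan-leukocyte scaling. Trp73 was listed at 0 in both tumor libraries and in lung replicate 3, and stood at 0.120 and 0.0344 TPM in lung replicates 1 and 2.

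Grhl2 encodes a grainyhead-like factor that activates E-cadherin and claudin genes. It stood at 6.78 and 6.70 TPM in the tumor libraries and at 0.796, 0.319 and 0.809 TPM in the lung libraries. The tumor values nearly coincided, and both exceeded the highest lung value. The level was 10.5-fold higher in tumor, a difference of 2.25 ± 0.26 (limma, adjusted p = 0.00224). Grhl1, which regulates desmosomal cadherins in the epidermis, was far lower, at 1.04 and 1.48 TPM in tumor and 0.196, 0.358 and 0.365 TPM in lung. Its groups did not overlap either, and its fitted difference with no filter was 0.79 ± 0.19 (limma, adjusted p = 0.0386). In that fit, 14.5% of 34930 rows were called higher and 12.4% lower.

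The rest of the grainyhead family was mixed. Grhl3, a barrier factor of surface epithelia, was at 1.76 and 2.11 TPM in tumor and at 0.0356, 0.0203 and 0.0354 TPM in lung, under the filter. Of the 3 relatives tested, Tfcp2 and Tfcp2l1 were higher (differences of 0.84 and 1.27) and Ubp1 was lower (-1.14), the last at 16.2 and 14.3 TPM in tumor and at 26.0, 35.3 and 45.2 TPM in lung. Ubp1 lost its call when either tumor library or lung replicate 2 was left out, and when libraries were scaled to pan-leukocyte markers. The higher calls numbered 1 without tumor replicate 2, 1 without tumor replicate 3 and 0 with the replicate block.

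Both OVOL zinc-finger repressors were low in every library. Ovol1 was at 1.28 and 2.03 TPM in tumor, and at 0.122, 0.323 and 0.167 TPM in lung. Ovol2 was at 2.10 and 1.44 TPM in tumor, and at 0.315, 0.160 and 0.0696 TPM in lung. For both genes each tumor library exceeded every lung library, and the ratios of means were 8.10 and 9.76. Fitted with no filter, the differences were 1.13 ± 0.22 for Ovol1 (limma, adjusted p = 0.0207) and 1.23 ± 0.21 for Ovol2 (limma, adjusted p = 0.0160). The calls were fragile. That of Ovol1 ended without any one lung library (adjusted p from 0.0574 to 0.0775), that of Ovol2 without lung replicate 2 or 3 (adjusted p of 0.0641 and 0.0652), and that of Grhl1 without tumor replicate 3 or any one lung library (adjusted p from 0.0638 to 0.0967). Ovol3 was listed at 0 in all 5 libraries.

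Junction and epithelial splicing genes that GRHL and OVOL factors are linked to were nearly all higher in tumor. Of 26 listed, 26 were tested, 25 were higher in tumor and 0 were lower (limma), with a median difference of 3.81. The remaining gene was Tjp3, at 4.60 and 10.4 TPM in tumor and 4.09, 2.64 and 3.35 TPM in lung (limma adjusted p = 0.0913). Cdh1, which encodes E-cadherin, was at 132 and 141 TPM in tumor against 7.13, 3.98 and 3.86 TPM in lung. Epcam, an epithelial adhesion gene, was at 257 and 248 TPM in tumor against 5.44, 2.10 and 2.95 TPM in lung. Esrp1, a splicing regulator restricted to epithelia, differed by 4.09 ± 0.23, Evpl (envoplakin) by 3.86 ± 0.20 and the protease inhibitor gene Spint2 by 3.29 ± 0.16 (limma adjusted p = 0.000901 for each). Of the 26 genes, 8 also belong to the 12 epithelial markers.

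Most transition and mesenchymal genes that were called were higher in tumor. Among 12 listed 10 were tested, 6 were higher and 1 was lower, with a median difference of 1.57. Fn1, which encodes the matrix protein fibronectin, was at 1286 and 1396 TPM in tumor against 84.9, 75.6 and 97.0 TPM in lung (3.96 ± 0.17, limma adjusted p = 0.000901). Zeb1, the transition factor repressed by OVOL proteins, was at 19.2 and 13.8 TPM in tumor and at 22.6, 16.0 and 17.6 TPM in lung (-0.18 ± 0.24, limma adjusted p = 0.536). Its groups overlapped. The lower gene was Snai1, at 9.16 and 7.69 TPM in tumor and 27.2, 30.2 and 15.9 TPM in lung (limma adjusted p = 0.0150), a call that ended without either tumor library, without lung replicate 1 or 2, and under pan-leukocyte scaling. Twist1 was at 16.0 and 9.04 TPM in tumor, against 0.0327, 0.150 and 0.0651 TPM in lung. Twist2 was uneven in tumor, at 25.5 TPM in replicate 2 and 3.48 TPM in replicate 3, against 0.0272, 0 and 0.0416 TPM in lung. Among the fibroblast markers, Col3a1 was uneven in the same way, at 917 and 159 TPM in tumor replicates 2 and 3 and at 8.13, 12.9 and 7.04 TPM in lung, and so was Dcn, at 63.7 and 10.7 TPM in tumor and at 3.06, 1.99 and 1.64 TPM in lung. Others were even between the tumor libraries, with Pdpn at 8.78 and 9.28 TPM in tumor and at 3.40, 1.81 and 1.14 TPM in lung. The 6 higher calls numbered 3, 2 and 2 without lung replicates 1, 2 and 3.

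Klf5 encodes a Kruppel-like factor of proliferating epithelial cells. It stood at 28.0 and 25.3 TPM in tumor, and in lung, at 4.77, 5.80 and 3.68 TPM, it was the only factor of the 10 above 2 TPM. Both tumor values lay far above the highest lung value. The ratio of means was 5.61 and the difference 2.28 ± 0.22 (limma, adjusted p = 0.00162).

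Most of the KLF genes called went against Klf5. Of 16 relatives 11 were tested, of which 1 was higher and 7 were lower, but with libraries scaled to pan-leukocyte markers 9 were higher and 0 lower. Klf13 was at 15.4 and 31.3 TPM in tumor and at 259, 289 and 368 TPM in lung (-3.72 ± 0.34, limma adjusted p = 0.00152). Klf3 was at 46.9 and 59.8 TPM in tumor and at 395, 526 and 547 TPM in lung. Klf2, a quiescence factor of leukocytes and endothelium, differed by -2.20 ± 0.25 and Klf7 by -2.09 ± 0.31. Klf4, a factor of differentiating epithelia and of myeloid cells, overlapped between groups, at 55.3 and 48.1 TPM in tumor and 59.2, 48.6 and 55.6 TPM in lung (-0.07 ± 0.16, limma adjusted p = 0.716). The 1 higher gene, Klf16, lost its call when any single library was left out.

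Elf3 and Ehf encode epithelium-specific ETS factors. Elf3 had the highest tumor level of the 10, at 41.6 and 53.3 TPM, against 1.77, 0.541 and 0.326 TPM in lung. The lowest tumor value lay far above the highest lung value, and the ratio of means was 54.0 (difference 4.75 ± 0.37, limma adjusted p = 0.00125). Ehf was much lower, at 2.78 and 5.05 TPM in tumor and 1.16, 0.217 and 0.611 TPM in lung. Its groups did not overlap, and the difference of 1.56 ± 0.39 passed (limma, adjusted p = 0.0203). That call rested on single libraries, since it ended without tumor replicate 3 (1.22, adjusted p = 0.0819) and without lung replicate 3 (1.56, adjusted p = 0.0616).

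Several hematopoietic ETS genes were lower in tumor. Of 20 ETS relatives 17 were tested, of which 4 were higher and 10 were lower, while scaling to pan-leukocyte markers gave 11 higher and 1 lower. Spi1, which encodes the myeloid factor PU.1, was at 24.3 and 71.3 TPM in tumor and at 564, 648 and 557 TPM in lung. Spib, its lymphoid relative, was at 0.172 and 1.06 TPM in tumor and at 44.2, 22.5 and 32.6 TPM in lung. Erg, an endothelial factor, differed by -2.74 ± 0.24 and Elk4, a serum response cofactor, by -1.85 ± 0.20 (limma adjusted p = 0.00143 and 0.00201). The higher genes were Etv1, Etv4, Etv5 and Elk3, and the higher calls numbered 2 without tumor replicate 2. Etv4, an ETS factor induced by growth factor signalling, stood near Elf3 in tumor level, at 65.4 and 45.1 TPM in tumor against 0.450, 1.22 and 0.828 TPM in lung (4.94 ± 0.28, limma adjusted p = 0.000901). The other epithelial ETS genes stayed low. Elf5 was at 0.0967 and 0.175 TPM in tumor and 0.307, 0.134 and 0.844 TPM in lung, and Spdef was at 0.0333 and 0.0880 TPM in tumor and 0.377, 0 and 0.0615 TPM in lung.

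Simple epithelial genes linked to KLF5, ELF3 and EHF were mostly higher in tumor. Of 20 listed 17 were tested, 14 were higher and 2 were lower (limma), with a median difference of 3.09. Krt7, Krt18 and Krt19, keratins of simple epithelia, differed by 7.41 ± 0.42, 6.71 ± 0.35 and 5.07 ± 0.23, and Sprr1a, a cornified envelope gene, by 4.57 ± 0.23 (limma adjusted p = 0.000901 for each). Of the 20 genes, 4 keratins also belong to the 12 epithelial markers. The lower genes were Plet1 and Lcn2. Lcn2, which is also a neutrophil granule gene and stands in the neutrophil list, was at 43.0 and 105 TPM in tumor and at 1229, 1587 and 836 TPM in lung. Scaling to pan-leukocyte markers left 0 of the 17 lower.

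**Figure D2:**
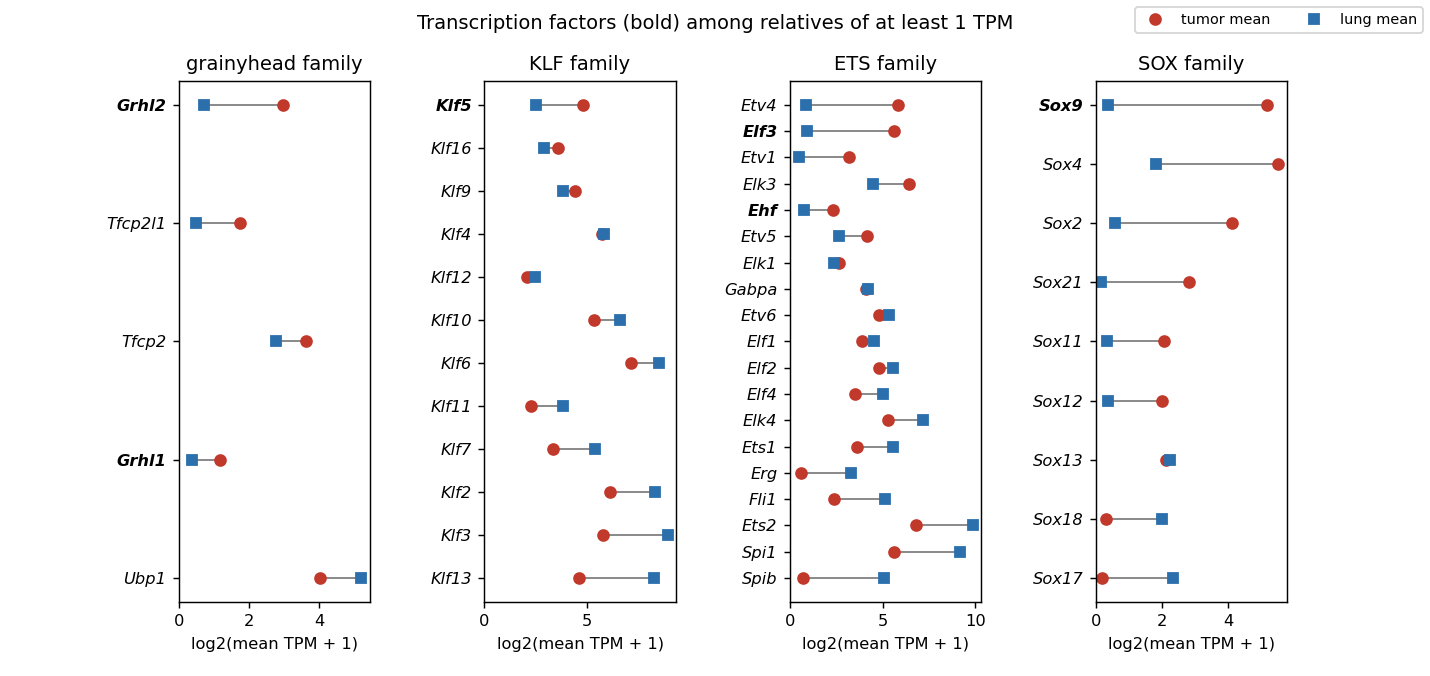
Mean level of the grainyhead, KLF, ETS and SOX genes that averaged 1 TPM or more, plus Grhl1, as log2(mean TPM + 1), with tumor as circles and lung as squares and the described factors in bold. Klf5 and Elf3 stand among the few genes of their families that are higher in tumor, whereas most SOX genes shown are.

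Sox9, a progenitor factor of many epithelia and of cartilage, showed the largest ratio of the 10. Its levels were 39.6 and 30.2 TPM in tumor and 0.432, 0.239 and 0.174 TPM in lung. The tumor mean was 124-fold the lung mean, with a difference of 4.80 ± 0.23 (limma, adjusted p = 0.000901). Other SOX genes were higher as well. Of 18 relatives 8 were tested, 5 of them higher and 2 lower, with a median difference of 1.65. Of the called genes only Sox4 averaged 1 TPM or more in both groups, so the filter fixed the direction of the others. Sox4, widely expressed in progenitors and tumors, was at 46.4 and 42.2 TPM in tumor and at 3.44, 1.85 and 2.30 TPM in lung. Sox2, a factor of stem cells and of foregut epithelia, was at 20.4 and 12.3 TPM in tumor against 1.10, 0.171 and 0.174 TPM in lung. Sox21 differed by 2.64 ± 0.30 (limma, adjusted p = 0.00215), and Sox11 and Sox12 completed the higher genes. The lower ones were the endothelial factors Sox17 and Sox18. The lower calls numbered 0 without tumor replicate 2, 1 without tumor replicate 3, 1 without lung replicate 2 and 0 under pan-leukocyte scaling.

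The cartilage genes known as SOX9 targets were mostly at low levels. Only 4 of 16 reached the filter, 2 higher and 1 lower, with a median difference of 0.20. Each called gene had a mean under 1 TPM in its lower group, so the filter fixed its direction. Col2a1, the cartilage collagen, was at 0.461 and 0.0142 TPM in tumor and 0.843, 0.547 and 0.321 TPM in lung. Acan, the cartilage proteoglycan gene, was higher, at 9.35 and 6.05 TPM in tumor against 0.318, 0.0581 and 0.120 TPM in lung (limma adjusted p = 0.00179). Col11a2 was lower, at 0.973 and 0.960 TPM in tumor against 18.1, 12.6 and 14.7 TPM in lung, although scaling to pan-leukocyte markers ended that call. Col11a1, the other higher gene, was at 5.43 and 1.71 TPM in tumor and 0.117, 0.0721 and 0.168 TPM in lung. The higher calls numbered 1 without lung replicate 2 and 1 without lung replicate 3, and the lower calls 2 without lung replicate 1.

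Nkx2-1, the lung and thyroid factor, ran the other way. It was listed at 0 in tumor replicate 2 and stood at 0.0165 TPM in tumor replicate 3, against 1.05, 0.263 and 0.192 TPM in lung. Both tumor values lay under all lung values, and lung replicate 1 was the highest. With no filter the difference of -0.53 ± 0.26 did not pass (limma, adjusted p = 0.215), and it passed with a pseudocount of 0.01 (-4.58, adjusted p = 0.0339). The tumor values of 0 and 0.0165 TPM lie near that pseudocount, which largely sets the size of -4.58. That pass therefore adds little to the first fit. Of its 6 NK2 relatives 1 was tested, Nkx2-3, a factor of gut and spleen mesenchyme, and it was higher. Nkx2-3 was at 12.5 and 13.2 TPM in tumor, at 0.0727 TPM in lung replicate 1 and listed at 0 in lung replicates 2 and 3 (3.76 ± 0.22, limma adjusted p = 0.000915). It passed the filter through the tumor libraries alone, so the filter fixed its direction.

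Most lung epithelial genes linked to NKX2-1 were lower in tumor. Of 21 listed 17 were tested, 11 of them lower and 1 higher (limma), with a median of -2.56. Scaled to pan-leukocyte markers, 7 were lower and 5 higher. In the main fit, only Napsa of the lower genes had a tumor mean of 1 TPM or more. The other lower genes reached the filter through lung alone, so it fixed their direction. Scgb1a1, the club cell secretoglobin, was listed at 0 and at 0.431 TPM in tumor, against 302, 72.0 and 61.7 TPM in lung. Sftpc, the alveolar type II surfactant gene, was listed at 0 and at 0.0601 TPM in tumor, against 78.9, 40.8 and 32.4 TPM in lung. Lung replicate 1 was highest for both, as for Nkx2-1. Napsa, a surfactant-processing protease gene that leukocytes also express, stood at 4.83 and 8.17 TPM in tumor and was even in lung at 124, 117 and 117 TPM. Ager, an alveolar type I gene, differed by -2.56 ± 0.21. The 1 higher gene, Etv5, also stands in the ETS list and lost its call without either tumor library and without lung replicate 2.

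**Figure D3:**
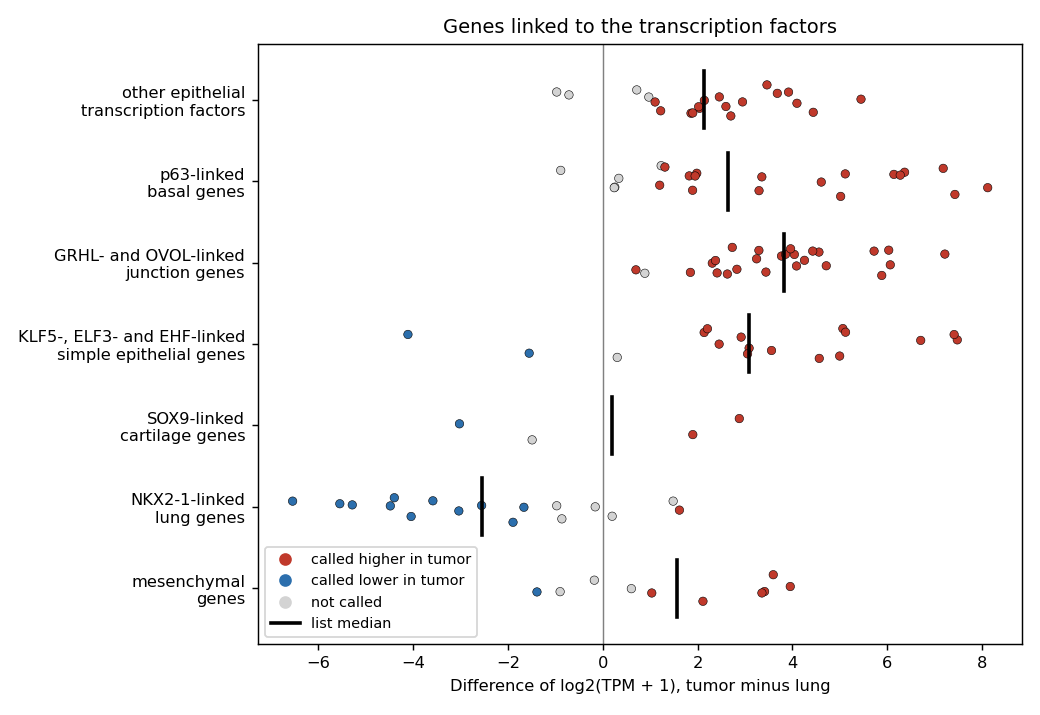
Difference of log2(TPM + 1), tumor minus lung, for each tested gene of 7 lists linked to the factors, with called genes in color and the list median as a bar. Medians lie between 1.57 and 3.81 for 5 lists, at 0.20 for the 4 tested cartilage genes linked to SOX9 and at -2.56 for the lung genes linked to NKX2-1.

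Other epithelial transcription factors, outside the families above, were higher in tumor where they were called. Of 38 listed 21 were tested, 17 were higher and 0 lower (limma), with a median difference of 2.14. Of the called genes only Hes1, Foxj1 and Gata6 had lung means of 1 TPM or more (10.7, 1.17 and 1.02 TPM). The other called genes reached the filter through tumor alone, so it fixed their direction. Pitx1, a homeobox factor of oral and hindlimb development, was at 59.3 and 41.6 TPM in tumor and at 0.410, 0.0469 and 0.0612 TPM in lung (5.45 ± 0.26, limma adjusted p = 0.000901). Barx2, a homeobox gene of oral and glandular epithelia, was at 19.3 and 16.3 TPM in tumor, at 0.315 TPM in lung replicate 1 and listed at 0 in lung replicates 2 and 3. Tfap2a, a factor of surface ectoderm, was at 22.9 and 13.9 TPM in tumor and at 0.231, 0.237 and 0.277 TPM in lung. Tead1, a partner of YAP, differed by 3.68 ± 0.22 and Id4 by 3.46 ± 0.22. Foxa2, a factor of endoderm, was at 3.49 and 3.91 TPM in tumor against 0.258, 0.0837 and 0.0854 TPM in lung. The 4 tested genes not called were Gata3, Gata4, Hopx and Hey1. Without tumor replicate 2, 1 gene of the list was called lower.

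The 10 factors formed a steep order in tumor. By mean TPM the order was Elf3 (47.4), Sox9 (34.9), Klf5 (26.6), Grhl2 (6.74), Ehf (3.91), Ovol2 (1.77), Ovol1 (1.65), Grhl1 (1.26), Trp63 (0.726) and Nkx2-1 (0.00824). The libraries of Ovol2 and Ovol1 overlapped, as did those of Ovol1 and Grhl1, and no other neighbours did. In lung only Klf5 (mean 4.75 TPM) stood apart from its neighbour. From Elf3 (0.878) down to Ovol2 (0.182), each factor's lung values overlapped those of the next. Within lung, replicate 1 held the highest value for 6 factors, Trp63, Elf3, Ehf, Ovol2, Sox9 and Nkx2-1, and it also held the highest epithelial marker sum. Lung replicate 3 held the lowest value for 6. Between the tumor libraries there was no common shift, with 5 factors higher in replicate 3 and 5 higher in replicate 2.

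**Figure D4:**
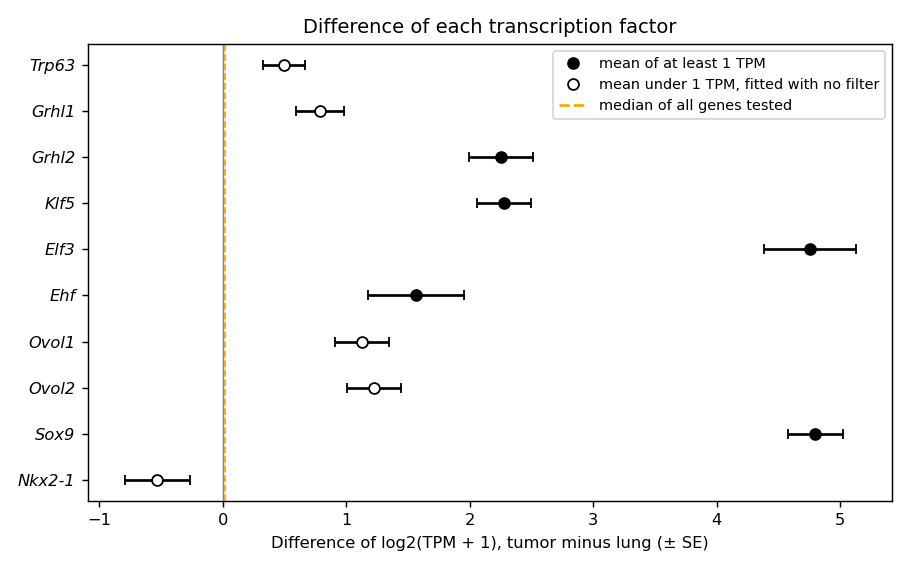
Difference of log2(TPM + 1), tumor minus lung, with its SE, for the 10 factors. Filled points averaged 1 TPM or more, and open points were fitted with no filter. Sox9 and Elf3 lie near 4.8, and Nkx2-1 is the only point under 0 and under the median of all genes tested.

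Set against the epithelial markers, most factors had a lower ratio in tumor than in lung. Expressed per 1000 TPM of the 12 markers, Klf5 was at 4.81 and 4.33 in tumor and at 41.7, 91.3 and 58.5 in lung. Grhl2 was at 1.17 and 1.15 in tumor against 6.96, 5.03 and 12.9 in lung. Ehf was at 0.477 and 0.865 in tumor against 10.1, 3.41 and 9.72 in lung. Trp63, Grhl1, Ovol1, Ovol2 and Nkx2-1 likewise lay under every lung value in tumor. Elf3 overlapped, at 7.15 and 9.12 in tumor and 15.4, 8.53 and 5.19 in lung. Sox9 alone of the 10 lay above all lung values, at 6.82 and 5.16 in tumor against 3.78, 3.76 and 2.76 in lung. By ratio of mean TPM, Sox9 (124) and Elf3 (54.0) compared with 72.2 for Epcam, 27.3 for Cdh1 and 170 for Krt8. The lowest ratio of the 12 markers was that of Spint1 (8.46), under Grhl2 (10.5) and Ovol2 (9.76), so the picture depends on the marker. Klf5 did not follow the marker sum within lung, being highest in replicate 2, at 5.80 TPM, where the sum was 63.5 TPM against 114 TPM in replicate 1. The marker sum is led by keratins, and its make-up differed between the groups. Krt19 made up 50.3, 32.3 and 36.8 TPM of the lung sums of 114, 63.5 and 62.9 TPM. In tumor it made up 1311 and 1372 TPM of 5813 and 5841 TPM. The ratios therefore rest on sums of unlike make-up, and no test was made of these ratios. Every factor but Klf5 had a lung mean under 1 TPM, where the counting error is unknown.

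**Figure D5:**
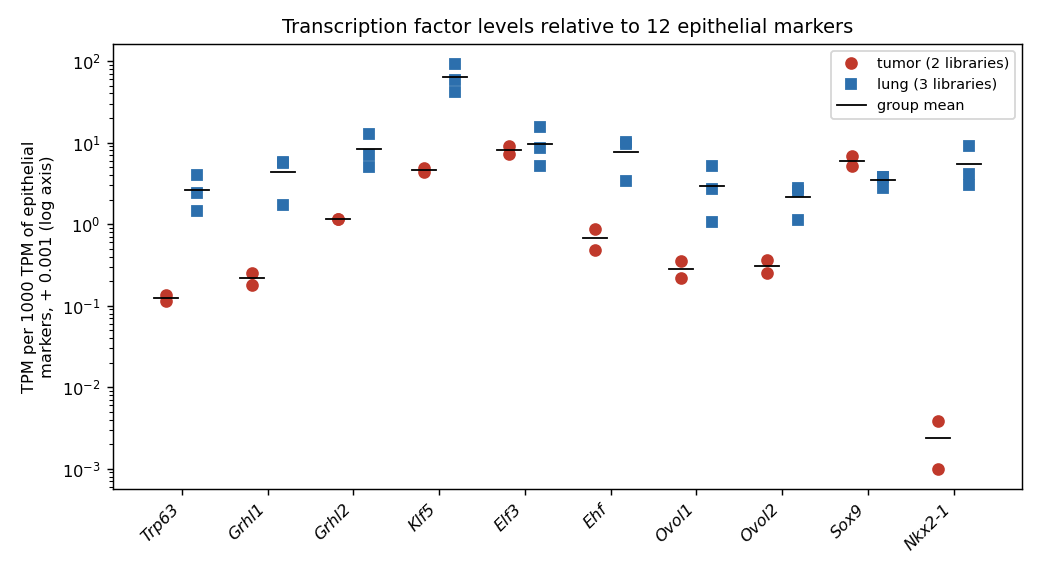
Level of each factor per 1000 TPM of 12 epithelial markers, + 0.001 on a log axis, in tumor (circles) and lung (squares) libraries with group means as bars. Sox9 is higher in tumor, Elf3 overlaps, and the other 8 factors are lower in tumor on this scale.

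Positions are from GENCODE M21 on GRCm38. Elf3 lies on chromosome 1 from 135253575 to 135258568 on the minus strand, and Sox9 on chromosome 11 from 112782224 to 112787760 on the plus strand. Klf5 lies on chromosome 14 from 99298691 to 99315036 and Grhl2 on chromosome 15 from 37233036 to 37363569, both on the plus strand. Grhl1 lies on chromosome 12 from 24572283 to 24617391 and Trp63 on chromosome 16 from 25683763 to 25892102, also on the plus strand. Ehf and Ovol2 lie on chromosome 2 from 103263433 to 103303278 and from 144305175 to 144332146, Nkx2-1 on chromosome 12 from 56531958 to 56536908 and Ovol1 on chromosome 19 from 5549136 to 5560646, all on the minus strand. Promoter sequence was held for 4 of the 10 factors in RefSeq on GRCm38.p6. Of the 250 bases before the RefSeq start, those that lie upstream of the GENCODE gene are shown for Elf3 and for the first of 2 starts of Grhl1, both of which stood above lung in every tumor library, and for Nkx2-1, which stood below. They are written 5′ to 3′ on the gene's strand, with capitals for the matches to any searched motif. The stretches are chr1:135258569-135258722 (minus strand, 154 bases), chr12:24572037-24572282 (plus strand, 246 bases) and chr12:56536909-56537158 (minus strand, 250 bases).
Elf3: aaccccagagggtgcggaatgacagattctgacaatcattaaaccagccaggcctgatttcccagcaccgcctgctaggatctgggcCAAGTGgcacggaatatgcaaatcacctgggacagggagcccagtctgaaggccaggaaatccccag
Grhl1: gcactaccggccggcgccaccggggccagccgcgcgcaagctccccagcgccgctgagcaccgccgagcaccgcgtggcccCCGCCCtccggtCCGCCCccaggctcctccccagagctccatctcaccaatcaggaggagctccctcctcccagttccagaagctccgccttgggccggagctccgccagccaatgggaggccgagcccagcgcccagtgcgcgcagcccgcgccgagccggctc
Nkx2-1: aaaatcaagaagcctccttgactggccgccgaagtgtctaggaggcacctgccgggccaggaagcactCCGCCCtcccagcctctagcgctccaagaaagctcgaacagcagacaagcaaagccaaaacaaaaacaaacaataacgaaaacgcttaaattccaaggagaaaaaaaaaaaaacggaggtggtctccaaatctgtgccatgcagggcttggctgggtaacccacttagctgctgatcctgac
Motifs were searched on both strands in 32536 windows of 250 bases. They were AACCGGTT and its looser form AACNNGTT for grainyhead factors, where every match of the first is also one of the second, CCGTTA for OVOL, CGGAAG for ETS, GGGCGG for GC boxes bound by SP and KLF factors, CCACCC for KLF factors, CAAGTG for NKX2 and ACAAAG for SOX. The Elf3 stretch held 1 CAAGTG, the Grhl1 stretch 2 GGGCGG and the Nkx2-1 stretch 1 GGGCGG, the matches of Grhl1 and Nkx2-1 reading CCGCCC on the strand shown. The 96 bases of the Elf3 window that lie inside the GENCODE gene, not shown, held 1 CCACCC. Of all windows, 28.1% held CCACCC, 33.0% held GGGCGG and 11.5% held CAAGTG. AACCGGTT was in 0.117%, AACNNGTT in 3.62%, CCGTTA in 2.19%, CGGAAG in 13.7% and ACAAAG in 16.5% of windows, and these letters were not in the 3 stretches shown. A match is a description of the letters and not a bound site.

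In the authors' deposited table none of the 10 factors had a false discovery rate under 0.05. The lowest was that of Grhl2, at 0.0502, followed by Klf5 at 0.138 in the authors' deposited table. The other factors called here stood at 0.261 (Elf3), 0.272 (Sox9) and 0.396 (Ehf) there.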

How the data were processed

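The authors deposited TPM per gene for 5 libraries, obtained with Salmon 0.9.1 and GENCODE mouse M24 transcripts according to the series' design text. The deposited p-values and false discovery rates are the authors' own comparison and were used only to describe it. The authors' fold changes were not used. TPM is a share of each library and keeps no depth, so precision comes from the spread between libraries alone. Groups follow the tissue label and replicate numbers the titles. Of 55276 rows, 26 held spreadsheet dates in place of symbols and were left out.

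Genes averaging 1 TPM or more were tested across the whole table on log2(TPM + 1), using limma 3.58.1 (R 4.3.3) and its intensity trend, with Benjamini-Hochberg adjustment and limits of 0.05 and 1.5-fold. Tests were two-sided. Factors under the filter were fitted with no filter, a choice made after seeing the data, over 34930 rows with a value above 0. With 2 against 3 libraries no exact permutation p can fall under 0.1. The steps were tested on simulated data.

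The factors and gene lists were chosen with earlier results of these data known. Named genes are all 10 factors, up to 4 tested genes of each list with the smallest adjusted p and at least 5 TPM in the higher group, relatives of at least 5 TPM, called genes of the other epithelial transcription factors and 4 cell markers (Ptprc, Epcam, Cdh1, Krt8). Other named genes were chosen after their values were seen. Among them are Krt14, Krt5, Zeb1, Col2a1, Col11a1, Grhl3, Trp73 and low relatives. Whether counting used strand is not given in the sources used here.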

Additional observations from a re-analysis of the deposited data

How the results depend on the processing

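The 5 factors past the filter kept their direction in every alternative run, and Ehf was the only one to lose its call. For Grhl2, Elf3, Ehf and Sox9 the filter itself had fixed that direction. All 10 factors kept their direction under the scalings tried. Counting factors with no filter gave 8 higher, and a filter of 5 TPM gave 3, by construction of the genes tested. Leaving out single libraries gave 4 to 5 higher factors and 0 lower, 3454 to 4669 higher genes over the whole table and 2831 to 4179 lower genes, the lowest count without tumor replicate 2. Scaling to the pan-leukocyte markers moved the median of all genes to 2.92 and gave 11822 higher and 380 lower genes. The title number as a replicate block gave 3662 higher and 3449 lower genes and left 5 factors higher. The labels do not say whether same-numbered tumor and lung libraries are paired. Their deviations from the group means correlated by 0.00343 and 0.0833. With 2 tumor libraries the tumor deviations mirror each other, so these values cannot decide whether pairs exist. Under the block, Grhl1, Ovol1 and Ovol2, fitted with no filter, were not called (adjusted p of 0.140, 0.130 and 0.0925). A pseudocount of 0.1 ended the call of Grhl1 (adjusted p = 0.0538), and a fold limit of 2 ended it too. Trp63 passed under pan-leukocyte scaling (limma, adjusted p = 0.0198). That scaling raises tumor values relative to lung, because all 30 markers were lower in tumor. It therefore favours higher calls, and this one adds nothing to the main fit. No value has a known read count, so levels under 1 TPM carry an unknown counting error.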

Other observations

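Transcripts on the opposite strand of these genes were listed too. Gm16136, annotated antisense within Grhl2, was at 1.41 and 1.24 TPM in tumor and at 0.0518, 0.124 and 0.154 TPM in lung. Its tumor values exceeded every lung value, as those of Grhl2 did. Strand use is not stated and overlap of their exons was not tested, so whether reads of the pair were mixed is not known. Gm31166, a transcribed pseudogene opposite Ovol1, was at 1.34 and 2.92 TPM in tumor and at 3.29, 5.30 and 4.48 TPM in lung, while Ovol1 ran the other way. Gm26973, antisense to Nkx2-1, was listed at 0 in all libraries.

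Neighbouring protein-coding genes, looked up after the factors' values were seen, did not share one direction with them. Rnpep, an aminopeptidase gene 4.1 kb from Elf3, was at 26.3 and 37.9 TPM in tumor and at 64.4, 65.8 and 74.1 TPM in lung (-1.08, limma adjusted p = 0.00895). Ncald, a calcium sensor gene 2.6 kb from Grhl2, was at 0.592 and 0.259 TPM in tumor against 3.59, 2.70 and 3.34 TPM in lung (-1.57, limma adjusted p = 0.00601). Kcnj2, the nearest gene before Sox9 at 1705.4 kb, differed by -3.69 (limma adjusted p = 0.00113), and Slc39a11, 457.1 kb on the other side, by 0.75 (limma adjusted p = 0.0133). Also called higher were Zfp706 (225.3 kb from Grhl2, 0.84), Apip (170.8 kb from Ehf, 1.35) and Mgme1 (23.9 kb from Ovol2, 0.73). Klf11 (33.9 kb from Grhl1, -1.53) and Ap5b1 (7.4 kb from Ovol1, -1.32) were called lower. No other tested neighbour was called. Elf5, the ETS gene next to Ehf at 108.4 kb, stayed under 1 TPM in every library.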
